A study of Mus musculus with 37 samples.

Results

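The sodium pump of cortical astrocytes is described here through 7 genes, 3 that encode its beta subunits (Atp1b1, Atp1b2 and Atp1b3), 3 that encode small FXYD regulators of the pump (Fxyd1, Fxyd6 and Fxyd7) and Slc4a4, which encodes the sodium bicarbonate cotransporter NBCe1. They were chosen by name, and each of the 7 was found once by its Ensembl identifier among the 21975 genes of the tables. RNA-Seq expression was given as TPM (transcripts scaled to a fixed total and to transcript length) for astrocytes of male mice, taken 4 months after a severe controlled cortical impact (CCI) to the right parietal cortex or after sham surgery. Injured mice that developed post-traumatic epilepsy on EEG and video were PTE+ and those that did not were PTE-. The ipsilateral cortex gave 4 PTE+, 10 PTE- and 5 sham libraries, and the contralateral cortex gave 4 PTE+, 9 PTE- and 5 sham libraries. Each library came from 1 hemisphere of 1 mouse, and 17 of the 20 mice gave both hemispheres. Sham mice had the craniectomy and the implanted electrodes without the impact, so both surgeries were common to all groups. The strain is given as CD1 in the study's methods and as CD31 in the sample labels, and the age of the mice is not given in the sources used here. Cells were collected on magnetic beads with an antibody to ACSA-2, an epitope of the ATP1B2 protein. The product of 1 of the 7 genes was therefore the handle by which astrocytes were enriched.

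The sodium pump (Na+/K+-ATPase) exports sodium and takes up potassium at the expense of ATP. It is built of a catalytic alpha subunit, a glycosylated beta subunit that the alpha subunit needs to fold and to reach the membrane, and often a FXYD protein that tunes its affinity for ions. Astrocytes clear the potassium that active neurons release with this pump, and the sodium gradient it builds drives the uptake of glutamate. NBCe1 carries sodium and bicarbonate together across the membrane and is a main route by which astrocytes buffer the pH of brain tissue.

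In GRCm38 (mm10) coordinates, Fxyd1 (ENSMUSG00000036570) lies at chr7:31051678-31057199 on the minus strand, and Fxyd7 (ENSMUSG00000036578) lies 210 bases from it at chr7:31042513-31051467 on the same strand. Fxyd6 (ENSMUSG00000066705) is at chr9:45370185-45396159 on the plus strand. The beta subunit genes are on 3 chromosomes, with Atp1b1 (ENSMUSG00000026576) at chr1:164437109-164458355, Atp1b2 (ENSMUSG00000041329) at chr11:69599736-69605942 and Atp1b3 (ENSMUSG00000032412) at chr9:96332655-96364442, all on the minus strand. Slc4a4 (ENSMUSG00000060961) spans chr5:88886818-89239653 on the plus strand. The end of Atp1b1 overlaps Nme7 on the opposite strand, a gene with a mean of 87.3 TPM here, and the library kit does not mark strand, so reads in the overlap cannot be told apart.

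RefSeq windows of 280 bases around transcript starts (250 before and 30 after the start, GRCm38.p6) were matched for 5 of the 7 genes, all but Atp1b2 and Fxyd7. Those of Fxyd1 and Slc4a4 are printed here. Fxyd1 was the 1 member with an unadjusted p under 0.05 in limma between CCI and sham in the ipsilateral cortex (adjusted p 0.9997). Slc4a4 had 2 windows with very different sequence, called first and second start here, and its TPM sums transcripts from all its starts. Atp1b3 had 2 windows too. The Fxyd1 window lies inside the annotated gene, which has 17 transcripts. Both Slc4a4 windows lie inside their gene too, which has 8 transcripts. Starts nearer the 5′ end of either gene are therefore not shown. Each runs 5′ to 3′ along the gene, and capitals mark CG pairs.
Fxyd1 at chr7:31054824-31055103, minus strand: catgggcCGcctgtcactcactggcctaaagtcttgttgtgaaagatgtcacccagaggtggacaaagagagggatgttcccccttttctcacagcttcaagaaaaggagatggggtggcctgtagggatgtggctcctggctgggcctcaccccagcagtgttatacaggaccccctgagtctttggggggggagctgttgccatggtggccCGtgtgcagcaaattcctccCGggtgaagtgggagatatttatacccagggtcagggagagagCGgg
Slc4a4, first start, at chr5:88887010-88887289, plus strand: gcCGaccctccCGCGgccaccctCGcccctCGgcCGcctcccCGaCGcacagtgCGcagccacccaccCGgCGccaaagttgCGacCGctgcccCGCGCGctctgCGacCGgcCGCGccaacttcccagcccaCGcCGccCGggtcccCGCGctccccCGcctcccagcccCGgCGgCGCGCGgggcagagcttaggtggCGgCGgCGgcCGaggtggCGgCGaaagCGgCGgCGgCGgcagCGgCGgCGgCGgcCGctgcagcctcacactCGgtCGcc
Slc4a4, second start, at chr5:89027716-89027995, plus strand: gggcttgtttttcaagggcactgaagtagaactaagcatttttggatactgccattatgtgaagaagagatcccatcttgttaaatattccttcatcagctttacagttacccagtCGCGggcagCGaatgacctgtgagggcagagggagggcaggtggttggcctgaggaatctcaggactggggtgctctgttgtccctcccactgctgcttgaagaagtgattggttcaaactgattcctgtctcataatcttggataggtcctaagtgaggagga
The window of Fxyd1 held 4 CG pairs at 57.1% GC, near the median of 6 CG pairs and 52.5% GC over all 32851 windows of that length. At Slc4a4, the first start held 48 CG pairs at 81.4% GC, more CG pairs than 99.3% of windows, whereas the second start held 3 at 48.2% GC. Searched on both strands, TATAAA was found in the Fxyd1 window, as in 13.1% of all windows. GGGCGG was found in the first Slc4a4 window, as in 34.7%, and CCAAT in the second, as in 36.1%, and none of these shared a window. The tables give 1 value a gene, so use of either start was not measured.

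TPM carry no read depth, so counting error is unknown and the mice set the precision of each value. The ipsilateral library of PTE- mouse 9_14 stood apart, with 10727 genes above 0 against 15599 to 18534 in the other 36 libraries, and in it Fxyd6 is listed at 0. The 10 astrocyte markers summed to between 14892 and 20448 TPM in every library, and all 10 were above 0 in each. Markers of other cells were present too, the 10 neuronal genes summing to 47.7 to 895 TPM, the 10 oligodendrocyte genes to 524 to 4481 TPM and the 10 microglial genes to 116 to 740 TPM, with every marker of these 3 lists above 0 in all libraries but that of 9_14. These are bulk samples, in which fewer cells of a type and less RNA per cell cannot be told apart.

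Fxyd1, the gene of phospholemman, was the most abundant of the 7, with a median of 1093 TPM over the 37 libraries and rank 81 of 21975 genes by mean TPM. TPM is a level per transcript length, so levels of different genes may be set side by side. Atp1b2, the beta subunit typical of astrocytes, followed at a median of 629 TPM and rank 199. Its level was below that of Fxyd1 in 33 of 37 libraries and above that of Atp1b3 in 37 of 37. Atp1b3, Slc4a4 and Atp1b1 formed a middle tier with medians of 126, 122 and 108 TPM. Within this tier the order was not fixed, since Atp1b3 was above Slc4a4 in 19 of 37 libraries and Slc4a4 above Atp1b1 in 23 of 37. Fxyd6 had a median of 40.6 TPM and lay below Atp1b1 in 37 of 37 libraries, and Fxyd7 had a median of 24.4 TPM and lay below Fxyd6 in 31 of 37.

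Each family was thus led by 1 gene. Atp1b2 made up a median of 73.2% of the summed TPM of the 3 beta subunit genes, from 50.4 to 81.6% over libraries, against 14.4% for Atp1b3 and 13.1% for Atp1b1. Fxyd1 made up a median of 94.4% of the summed TPM of the 3 FXYD genes, from 88.8 to 99.8%. Fxyd5, which is not among the 7, had a mean of 81.7 TPM, above the means of Fxyd6 (42.3 TPM) and Fxyd7 (25.7 TPM). The share of Fxyd1 among all FXYD genes is therefore lower. The least variable member was Atp1b3, with a coefficient of variation of 13% over the 37 libraries, whereas that of Atp1b2 was 38.1%.

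**Figure D1:**
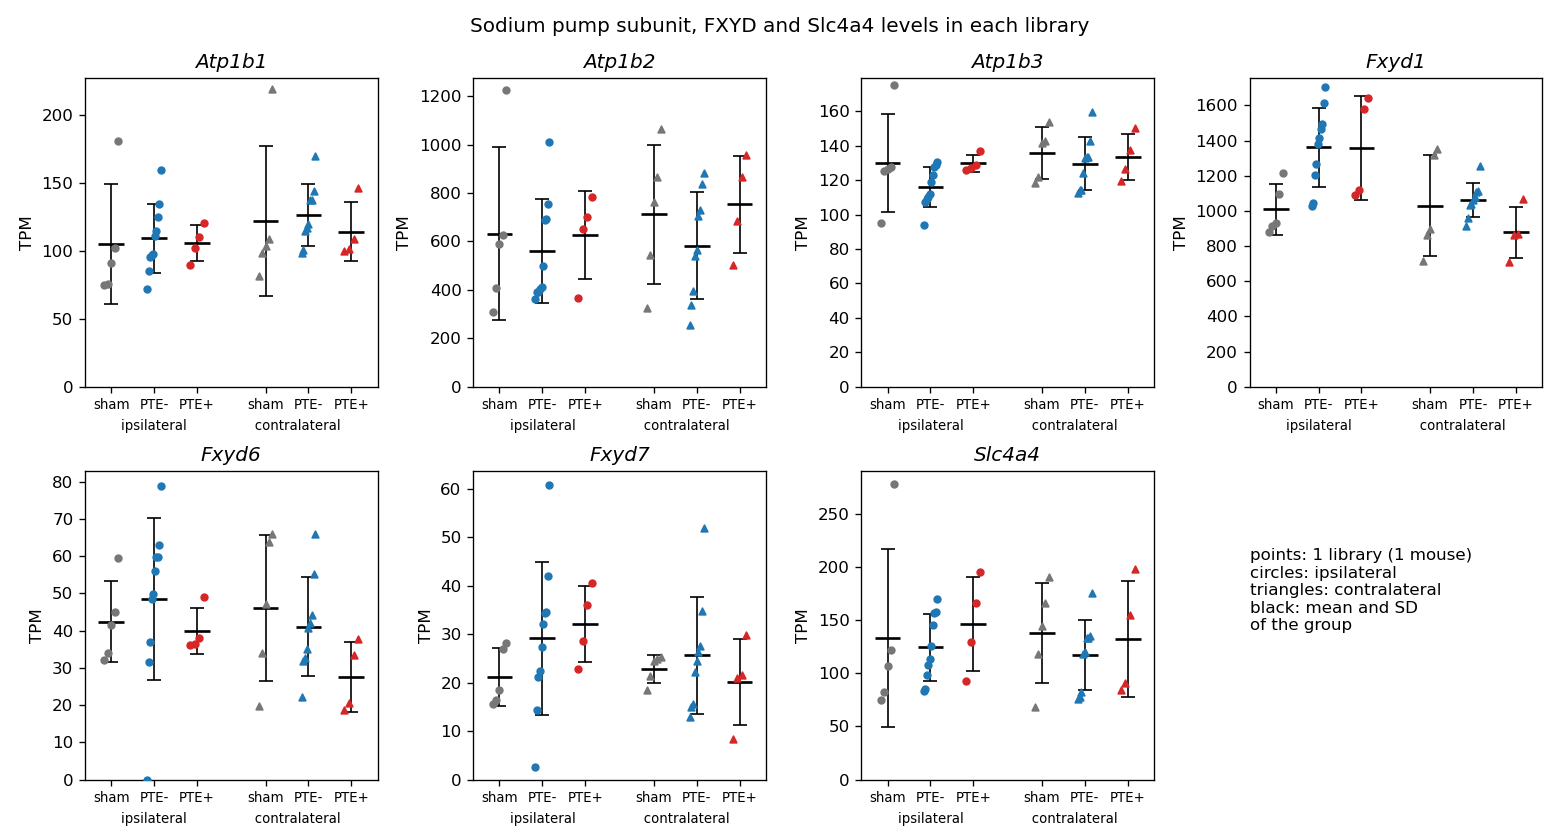
TPM (linear axis from 0, 1 panel per gene) in every library, by hemisphere and group, with 1 point per library (1 mouse) and the mean and SD of each group in black. Ipsilateral Fxyd1 lies at a mean of 1362 TPM in PTE- and 1358 TPM in PTE+ against 1008 TPM in sham mice, and the Fxyd6 point at 0 is the library of PTE- mouse 9_14.

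The question of which pump genes differ after injury was addressed first in the ipsilateral cortex, where Fxyd1 was the 1 member that passed. In sham mice Fxyd1 stood at 1096 TPM in mouse 8_15, 1217 TPM in 8_16, 932 TPM in 9_9, 915 TPM in 9_10 and 882 TPM in 9_11. The 4 PTE+ mice had 1116 TPM (8_10), 1093 TPM (9_17), 1579 TPM (9_18) and 1644 TPM (9_19). The 10 PTE- mice ranged from 1030 to 1704 TPM with a median of 1399 TPM. All 14 injured libraries lay above the sham median and 9 of 14 above the highest sham library, while the other 5 overlapped the 2 highest shams. Fxyd1 was 1361 ± 235 TPM (SD, n = 14) after CCI and 1008 ± 143 TPM (SD, n = 5) after sham surgery, a ratio of 1.35. On the log2(TPM + 1) scale the difference was 0.42 ± 0.125 (SE, 95% CI 0.16 to 0.68), with an exact two-sided permutation p of 0.0043 (the smallest possible is 8.6e-05). The study's thresholds for a differentially expressed gene (DEG), an unadjusted p under 0.05 and a change of at least 1.2-fold, were met in limma by Fxyd1 alone of the 7 members, against 1.62% of the 10434 genes tested. No gene of this comparison had an adjusted p under 0.05 in limma, with 195 genes at an unadjusted p under 0.05, and the adjusted p of Fxyd1 was 0.9997. Among mice whose name begins with 8 the difference was 0.23 (5 CCI against 2 sham) and among those whose name begins with 9 it was 0.56 (9 against 3). The median log2 difference of the 7 members was 0.10, against -0.01 over all genes tested. Fxyd1 remained a DEG in all 17 alternatives of the processing, between 0.38 and 0.49, with an adjusted p of 0.327 to 1 in limma.

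Both injured groups contributed to this difference. Fxyd1 averaged 1362 TPM with an SD of 225 TPM over the 10 PTE- mice, higher than in sham mice by 0.43 (95% CI 0.16 to 0.70, exact permutation p = 0.0077), with 10 of 10 libraries above the sham median. It was the 1 member that was a DEG between PTE- and sham, where 1.54% of genes tested were. Over the 4 PTE+ mice its mean was 1358 TPM with an SD of 294 TPM, a log2 difference from sham of 0.41 (95% CI 0.05 to 0.78, exact permutation p = 0.0635, smallest possible 0.0079). Among mice whose name begins with 8 it was -0.05 (1 PTE+ against 2 sham) and among those whose name begins with 9 it was 0.64 (3 against 3), and for PTE- against sham the values were 0.29 (4 against 2) and 0.51 (6 against 3). Fxyd1 and Fxyd7 were the 2 members that passed in this PTE+ comparison, where 1.56% of genes tested did. The call of Fxyd1 in PTE+ mice rested on single libraries, since it was lost without PTE+ mouse 9_18 (0.33) or 9_19 (0.31), without sham mouse 9_9 (0.39) or 9_10 (0.38), and with median centring (0.33). These comparisons share the sham libraries and are not independent of the one above. Between the injured groups, Fxyd1 differed by -0.01 (95% CI -0.33 to 0.31) in the ipsilateral cortex, and its ranges overlapped throughout.

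Fxyd7, which encodes a regulator found mainly in brain, was 22.9 TPM (8_10), 28.6 TPM (9_17), 36.1 TPM (9_18) and 40.6 TPM (9_19) in the ipsilateral cortex of PTE+ mice. Sham mice had 18.6 TPM (8_15), 26.9 TPM (8_16), 28.3 TPM (9_9), 16.4 TPM (9_10) and 15.6 TPM (9_11). All PTE+ libraries but that of 8_10 lay above every sham library, 9_17 by a small margin. The log2 difference between PTE+ and sham was 0.59 (95% CI 0.08 to 1.09, exact permutation p = 0.0635), and it passed the thresholds in 9 of 16 alternatives. The call was lost without PTE+ mouse 9_18 (0.52) or 9_19 (0.46), without sham mouse 8_15 (0.55) or 9_10 (0.51), with median centring (0.50), with quantile normalization (0.51) and in the fit of all 3 groups (0.59). Among mice whose name begins with 8 the difference was 0.03 (1 PTE+ against 2 sham) and among those whose name begins with 9 it was 0.81 (3 against 3). In PTE- mice Fxyd7 spanned 2.71 to 60.7 TPM with a median of 29.6 TPM, covering the range of both other groups. For all injured mice against sham the difference was 0.32 (95% CI -0.55 to 1.19), and without the library of 9_14, which holds the lowest value, it was 0.54 and passed.

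Fxyd6 in the ipsilateral cortex was 36.3 TPM (8_10), 36.2 TPM (9_17), 49.0 TPM (9_18) and 37.9 TPM (9_19) in PTE+ mice and 34.0 TPM (8_15), 32.1 TPM (8_16), 45.1 TPM (9_9), 59.4 TPM (9_10) and 41.5 TPM (9_11) in sham mice. PTE- mice ran from the 0 of 9_14 to 78.8 TPM with a median of 53.0 TPM. The groups overlapped, and the log2 difference between CCI and sham was -0.20 (95% CI -1.55 to 1.16). Without the library of 9_14 it was 0.20, still short of the thresholds.

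Summed cell type markers moved with members across libraries, to differing degrees. Outside the FXYD genes, ipsilateral Pearson's r was 0.81 for Slc4a4 with astrocyte markers and 0.65 for Atp1b3 with oligodendrocyte markers. With endothelial markers it was -0.74 for Atp1b2 and -0.62 for Atp1b1. Contralaterally these values were, in the same order, 0.02, 0.15, -0.41 and -0.49. The 6 ependymal markers (6 of 6 above 1 TPM on average, none at 0) summed to 89.5 to 921 TPM with a median of 416 TPM in the injured ipsilateral cortex and to 52.6 to 506 TPM with a median of 302 TPM in sham. Over the 19 ipsilateral libraries, which include the groups themselves, Pearson's r with this sum was 0.60 for Fxyd1, 0.54 for Fxyd6 and 0.62 for Fxyd7, and over the 18 contralateral ones 0.19, 0.27 and 0.26. Fxyd7 also ran with the sum of the neuronal markers, at an r of 0.57 and 0.65. The 7 choroid plexus markers summed to 12.3 to 844 TPM with a median of 24.3 TPM in the injured ipsilateral cortex. In sham their sum ran from 9.33 to 38.5 TPM with a median of 21.9 TPM. Their r with Fxyd1 was 0.49 ipsilaterally and 0.14 contralaterally. Microglial markers had an r with Fxyd6 of 0.46 ipsilaterally and 0.41 contralaterally. The library of 9_14, with Fxyd6 at 0 and Fxyd7 at 2.71 TPM, contributes to the ipsilateral r of both genes. Its ependymal, neuronal and microglial sums were 89.5, 81.4 and 120 TPM. The r without this library is not given here. Oligodendrocyte markers were lower in the injured ipsilateral cortex, at a median sum of 1369 TPM (774 to 2342) against 3097 TPM (524 to 4481) in sham, and their r with Fxyd1 was -0.23. Immediate early genes, which cell dissociation can induce, were lower too, with 8 genes summing to a median of 341 TPM (199 to 1275) in injured and 799 TPM (287 to 1219) in sham mice, and an r with Fxyd1 of 0.06. The part of these cells and genes in the results of any member was not tested.

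**Figure D2:**
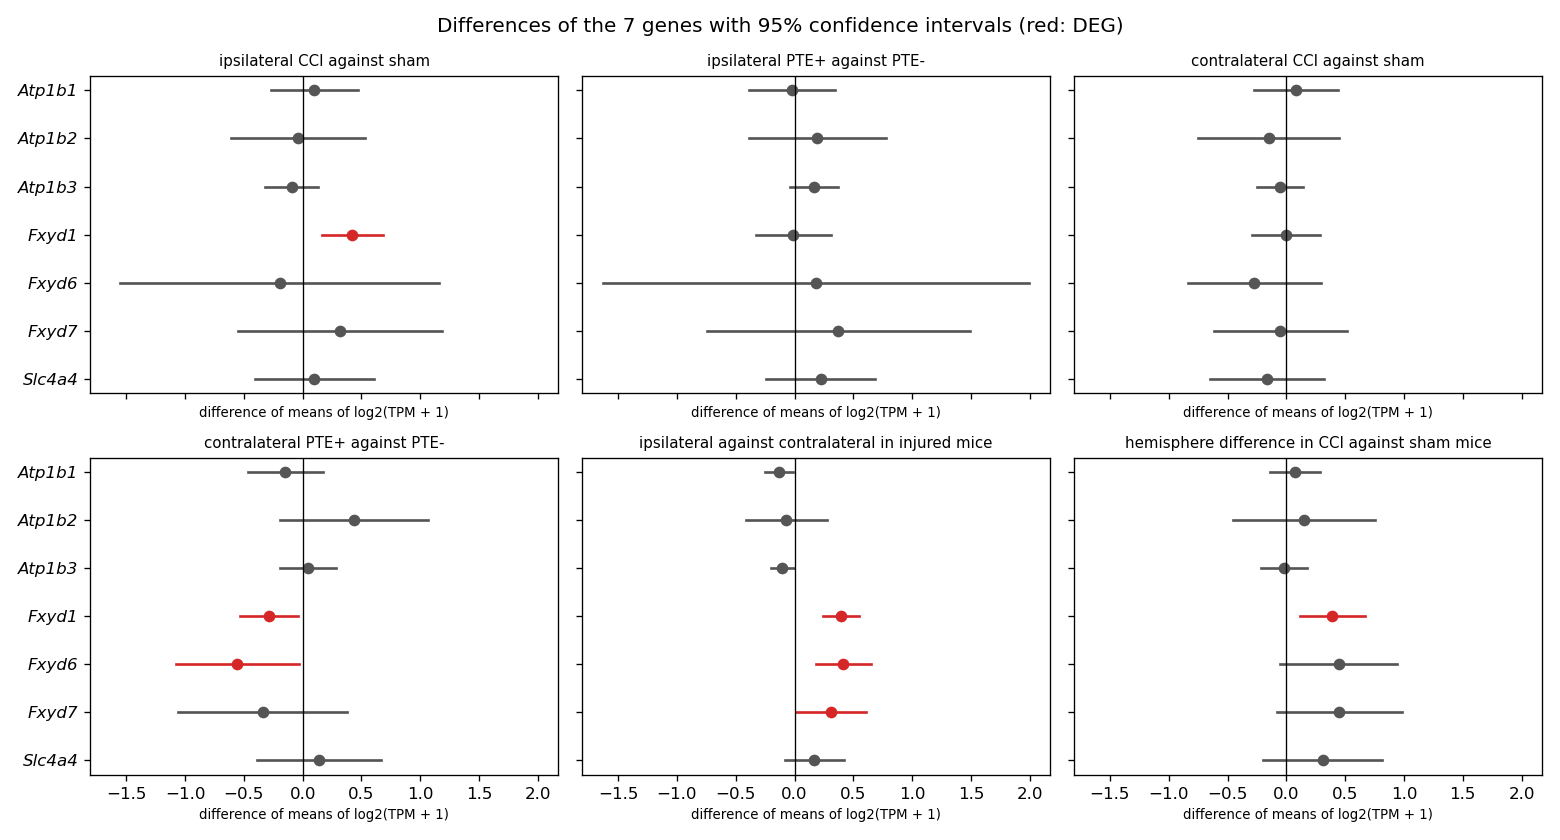
Differences of mean log2(TPM + 1) of the 7 genes (points) with 95% confidence intervals (lines) in 6 comparisons, with those past the thresholds for a DEG in red. For ipsilateral CCI against sham the Fxyd1 interval (0.16 to 0.68) lies clear of 0, and the intervals of Atp1b2 and Slc4a4 include 0 in all 6 panels.

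In the contralateral cortex the same question gave no DEG among the 7 members in limma, and none had an unadjusted p under 0.05, where 4.05% of 10556 genes tested were DEGs between CCI and sham. Fxyd1 differed by -0.001 (95% CI -0.29 to 0.29), with 1006 ± 140 TPM (SD, n = 13) after CCI and 1029 ± 287 TPM (SD, n = 5) in sham. Sham mice were spread widely here, with 1350 TPM in 8_15 and 1319 TPM in 8_16 against 716 TPM in 9_9, 896 TPM in 9_10 and 863 TPM in 9_11. The difference was accordingly -0.43 among mice whose name begins with 8 and 0.29 among those whose name begins with 9. The other 6 members lay between -0.27 for Fxyd6 (95% CI -0.84 to 0.29) and 0.08 for Atp1b1 (95% CI -0.28 to 0.44). Without sham mouse 9_11, the difference of Atp1b1 was 0.31 and passed. The median of the 7 members was -0.06, against -0.07 over all genes tested. None of the 7 was a DEG between PTE- and sham (3.76% of genes tested) or between PTE+ and sham (1.97%), and none had an unadjusted p under 0.05 there in limma. Atp1b1 in PTE- mice passed against sham without sham mouse 9_11.

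Which genes separate mice with and without epilepsy was asked by comparing PTE+ with PTE-. In the contralateral cortex Fxyd1 and Fxyd6 were both lower in PTE+ mice, so 2 of 7 members were DEGs against 2.79% of the 10423 genes tested. Contralateral Fxyd1 was 862 TPM (8_10), 870 TPM (8_17), 709 TPM (9_17) and 1068 TPM (9_18) in PTE+ mice and 917 to 1257 TPM with a median of 1063 TPM in PTE- mice. The PTE+ libraries other than 9_18 lay below every PTE- library. The log2 difference was -0.29 (95% CI -0.53 to -0.04, exact permutation p = 0.0112, smallest possible 0.0014), with an adjusted p of 0.999 in limma (0.517 to 0.9998 over the alternatives). It was -0.29 among mice whose name begins with 8 and -0.28 among those whose name begins with 9. The call held in 8 of 11 alternatives and was lost without PTE+ mouse 8_10 (-0.28) or 9_17 (-0.19) and in the fit of all 3 groups. The 8 endothelial markers (8 of 8 above 1 TPM on average, none at 0) summed to 677 to 2202 TPM with a median of 1440 TPM in these PTE+ libraries and to 451 to 1257 TPM with a median of 945 TPM in the PTE- libraries. Over the 18 contralateral libraries their r was -0.07 with Fxyd1 and -0.33 with Fxyd6, and their part in either result was not tested.

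Fxyd6, the gene of phosphohippolin, was 18.7 TPM (8_10), 20.6 TPM (8_17), 37.7 TPM (9_17) and 33.4 TPM (9_18) in the contralateral cortex of PTE+ mice. PTE- mice ranged from 22.2 to 66.0 TPM with a median of 40.6 TPM, above all 4 PTE+ values but overlapping 2 of them. The log2 difference was -0.56 (95% CI -1.08 to -0.03, exact permutation p = 0.0699). It was -1.12 among mice whose name begins with 8 and -0.02 among those whose name begins with 9. The call held in 7 of 11 alternatives, and was lost without PTE+ mouse 8_10 (-0.40) or 8_17 (-0.44), without the filter on TPM and in the fit of all 3 groups. Against sham, which shares these PTE+ libraries, Fxyd6 differed by -0.66 (95% CI -1.41 to 0.09, exact permutation p = 0.151), and it passed without PTE+ mouse 9_17 (-0.82) or sham mouse 8_16 (-0.92). The remaining members lay between -0.34 for Fxyd7 and 0.44 for Atp1b2 in the contralateral PTE+ against PTE- comparison, each with an interval that includes 0. The median of the 7 members was -0.15, against 0.05 over all genes tested.

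In the ipsilateral cortex none of the 7 was a DEG between PTE+ and PTE- in limma and none had an unadjusted p under 0.05, where 0.573% of the 10473 genes tested were DEGs. The median log2 difference of all genes tested was 0.12 in this comparison, and that of the 7 members was 0.18. Atp1b3 had the lowest exact permutation p, 0.0639, with PTE+ libraries at 130 ± 5.01 TPM (SD, n = 4) and PTE- libraries at 116 ± 11.7 TPM (SD, n = 10), a log2 difference of 0.16 (95% CI -0.04 to 0.37). The differences of the other 6 lay between -0.02 for Atp1b1 (95% CI -0.39 to 0.34) and 0.37 for Fxyd7 (95% CI -0.75 to 1.5). The interval of Fxyd6, 0.18 (95% CI -1.63 to 1.99), was the widest, and without the library of 9_14, where it is listed at 0, the difference was -0.39.

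The beta subunit genes did not pass the thresholds in any comparison between groups within a hemisphere. In the ipsilateral cortex the mean of Atp1b2 was 627 TPM in the 4 PTE+ libraries (SD 181), 561 TPM in the 10 PTE- libraries (SD 217) and 632 TPM in the 5 sham libraries (SD 357). Its sham values alone ran from 308 TPM in 9_10 to 1226 TPM in 9_11, wider than the range of the injured mice. The ipsilateral log2 difference between CCI and sham was -0.04 for Atp1b2 (95% CI -0.61 to 0.53), 0.10 for Atp1b1 (95% CI -0.27 to 0.47) and -0.09 for Atp1b3 (95% CI -0.32 to 0.13). These intervals, from this number of mice, leave room for differences in either direction. Contralaterally Atp1b2 differed by -0.15 (95% CI -0.75 to 0.45) and Atp1b3 by -0.06 (95% CI -0.25 to 0.14) between CCI and sham. Between contralateral PTE+ and PTE- mice the differences were 0.44 for Atp1b2 (95% CI -0.19 to 1.06), -0.15 for Atp1b1 (95% CI -0.46 to 0.17) and 0.04 for Atp1b3 (95% CI -0.19 to 0.28).

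The hemispheres were then compared within the 12 injured mice that gave both, so that each mouse served as its own control. Fxyd1 was higher on the injured side in 10 of 12 mice. The within-mouse log2 difference ranged from -0.09 (9_13) to 0.71 (9_16) with a median of 0.45, and only 9_12 and 9_13, both PTE-, were below 0. The mean was 0.40 ± 0.0718 (SE, 95% CI 0.24 to 0.55), and the exact sign-flip permutation p was 0.00195 (smallest possible 0.000488). Its adjusted p in limma was 0.0374, and Fxyd1 was 1 of 22 genes with an adjusted p under 0.05 among the 10350 tested. Over 15 alternatives it remained a DEG, between 0.37 and 0.44, with an adjusted p of 0.0109 to 0.102. It was similar among mice whose name begins with 8 (0.41, 5 of 5 mice higher) and with 9 (0.39, 5 of 7 higher). In all, 3 of the 7 members were DEGs between the hemispheres, and 4.51% of genes tested were. The median of the 7 members was 0.17, against -0.01 over all genes tested.

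Fxyd6 and Fxyd7 were the other 2. Fxyd6 was higher on the injured side in 8 of 12 mice, with differences from -0.14 to 1.13 and a mean of 0.41 (95% CI 0.18 to 0.65, exact sign-flip permutation p = 0.00781). Its adjusted p in limma was 0.201, and it passed in 14 of 15 alternatives. In the other, the fit without the replicate block, the difference was 0.047, and that fit also takes in the library of 9_14, where Fxyd6 is listed at 0. Fxyd7 was higher in 10 of 12 mice, with a mean of 0.31 (95% CI 0.02 to 0.60, exact sign-flip permutation p = 0.0762) and an adjusted p of 0.505 in limma. Its call held in 5 of 15 alternatives. It was lost without any 1 of PTE+ mice 9_17 (0.30) and 9_18 (0.31) and PTE- mice 8_9 (0.28), 8_11 (0.24), 8_13 (0.29), 8_14 (0.28), 9_16 (0.26) and 9_20 (0.29), with median centring (0.31) and without the replicate block (0.23).

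Atp1b1 and Atp1b3 had an unadjusted p under 0.05 in the opposite direction but changed by less than 1.2-fold. Atp1b1 was lower on the injured side in 9 of 12 mice, by a mean of -0.13 (95% CI -0.25 to -0.02, exact sign-flip permutation p = 0.0190). Atp1b3 was lower in 11 of 12 mice, by a mean of -0.10 (95% CI -0.20 to -0.002, exact sign-flip permutation p = 0.0132). Sham mice showed the same sign for both, -0.21 for Atp1b1 (5 of 5 mice lower) and -0.08 for Atp1b3 (3 of 5 lower). Atp1b2 (-0.07, 95% CI -0.42 to 0.27) and Slc4a4 (0.17, 95% CI -0.08 to 0.42) had differences of either sign among the injured mice.

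**Figure D3:**
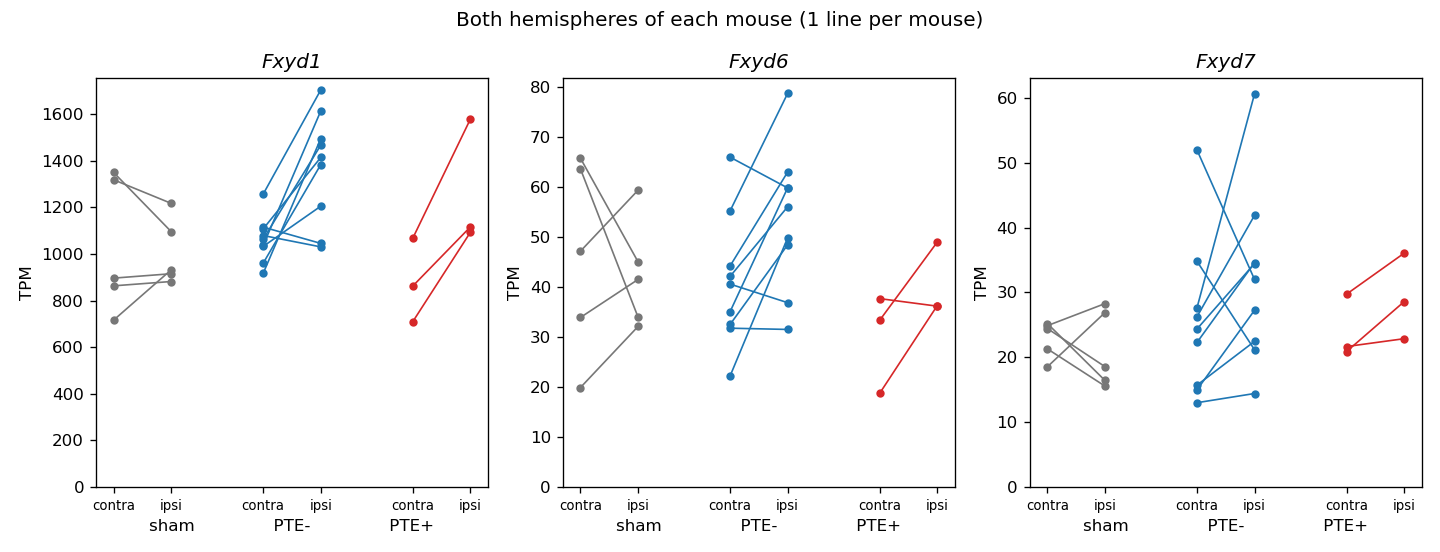
TPM of Fxyd1, Fxyd6 and Fxyd7 (axes from 0) in the contralateral and ipsilateral cortex of the 17 mice with both, with 1 line per mouse by group. The Fxyd1 lines rise toward the ipsilateral side in 10 of 12 injured mice and in 3 of 5 sham mice.

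Whether the sides differed more after injury than after sham surgery was tested on these within-mouse differences. For Fxyd1 the 5 sham mice had differences of -0.30 (8_15), -0.12 (8_16), 0.38 (9_9), 0.03 (9_10) and 0.03 (9_11), a mean of 0.005. The injured mean exceeded the sham mean by 0.39 ± 0.133 (SE, 95% CI 0.11 to 0.67, exact permutation p = 0.0139, smallest possible 0.000162), with 7 of 12 injured mice above every sham mouse. Fxyd1 was the 1 member that passed, and 6.5% of 10695 genes tested did, none with an adjusted p under 0.05 in limma (748 genes at an unadjusted p under 0.05). Among mice whose name begins with 8 the means were 0.41 in injured and -0.21 in sham mice, and among those whose name begins with 9 they were 0.39 and 0.15. The call held in 19 of 20 alternatives, between 0.27 and 0.48, and was lost with median centring (0.27). The corresponding difference was 0.44 for Fxyd6 (95% CI -0.05 to 0.94), which passed without sham mouse 8_16 (0.62). For Fxyd7 it was 0.45 (95% CI -0.08 to 0.98), which passed without sham mouse 8_16 (0.61) or PTE- mouse 9_13 or 9_15 (0.54 each). Between PTE+ and PTE- mice the side difference was a DEG for none of the 7, with none at an unadjusted p under 0.05 in limma, against 3.09% of genes tested. Within mice, the mean side difference of ependymal markers was 0.39 in injured mice (SD 1.43, higher ipsilaterally in 8 of 12). In sham mice it was -0.52 (SD 1.07, higher in 2 of 5). For microglial markers it was 0.13 in injured mice (SD 0.60, 10 of 12) and -0.07 in sham mice (2 of 5). Astrocyte markers had 0.05 (9 of 12) and 0.02 (2 of 5), and oligodendrocyte precursor markers -0.15 (2 of 12) and 0.12 (4 of 5). The mean side difference was -0.46 for oligodendrocyte markers in injured mice (higher in 4 of 12) and 0.22 in sham mice (2 of 5), and for endothelial markers -0.43 (3 of 12) and -0.32 (2 of 5). For choroid plexus markers it was 0.68 in injured mice (SD 2.13, higher in 6 of 12) and -0.19 in sham mice (SD 0.79, 2 of 5). The part of these cells was not tested.

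Slc4a4 was not a DEG in any comparison between groups with all libraries at equal weight, and its level in the ipsilateral cortex followed the first number of the mouse names, 8 or 9, whose meaning is not stated in the sources used here. PTE+ mice had 93.1 TPM (8_10), 195 TPM (9_17), 166 TPM (9_18) and 130 TPM (9_19), PTE- mice 83.5 to 169 TPM with a median of 119 TPM, and sham mice 75.2 TPM (8_15), 82.3 TPM (8_16), 107 TPM (9_9), 122 TPM (9_10) and 278 TPM (9_11). The 7 ipsilateral libraries of mice whose name begins with 8 ranged from 75.2 to 113 TPM with a median of 85.2 TPM. The 12 of mice whose name begins with 9 ranged from 107 to 278 TPM with a median of 151 TPM, so that the ranges overlapped only between 107 and 113 TPM. With the group in the fit, the log2 difference was 0.72 (95% CI 0.39 to 1.06), with an adjusted p of 0.0168 in limma and an exact p of 0.00036 from permutation within groups. Slc4a4 was the 1 member that passed, in a comparison where 24.3% of all 10494 genes tested did and the median log2 difference of all genes was 0.11. In the contralateral cortex the difference was 0.32 (95% CI -0.12 to 0.75) and none of the 7 passed or had an unadjusted p under 0.05 in limma, against 19.2% of genes tested.

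Against the study's groups, Slc4a4 differed by 0.10 (95% CI -0.41 to 0.60) between CCI and sham and by 0.22 (95% CI -0.24 to 0.69) between PTE+ and PTE- in the ipsilateral cortex. Contralaterally the values were -0.16 (95% CI -0.65 to 0.32) and 0.14 (95% CI -0.39 to 0.67). Without the sham library of 9_11, the ipsilateral difference between CCI and sham was 0.41 and did not pass. With array weights, which give less weight to outlying libraries, this ipsilateral difference was 0.41 and passed. For ipsilateral PTE+ against sham the difference was 0.26 (95% CI -0.50 to 1.01), and it passed without the library of 9_11 (0.56) and with array weights (0.60). Both numbers occur in every group, and with the number as a covariate Slc4a4 differed by 0.07 between ipsilateral CCI and sham mice.

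**Figure D4:**
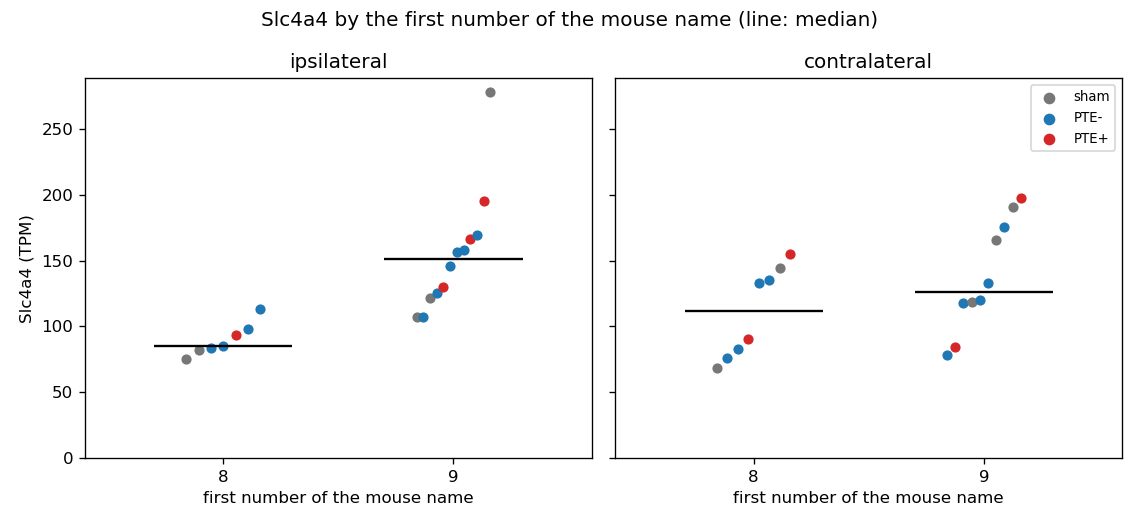
Slc4a4 in TPM by the first number of the mouse name in each hemisphere, 1 point per library colored by group, with a line at the median and points spread sideways by rank only. Ipsilaterally the median is 85.2 TPM for 8 and 151 TPM for 9, and contralaterally 112 and 126 TPM with wide overlap.

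Atp1b2 and Slc4a4 varied together across libraries. Pearson's r of their log2(TPM + 1) was 0.67 over the 19 ipsilateral libraries (Spearman's rho 0.60) and 0.87 over the 18 contralateral ones (rho 0.90), and 0.59 and 0.83 without the 2 libraries farthest from the median of Atp1b2. Among ipsilateral libraries it was -0.20 for mice whose name begins with 8 (n = 7) and 0.70 for those with 9 (n = 12), and contralaterally 0.94 (n = 8) and 0.78 (n = 10). These libraries share groups and preparation, and the values are a description. Sham mouse 9_11 had the highest Atp1b2, Slc4a4 and Atp1b1 of its hemisphere on the ipsilateral side.

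**Figure D5:**
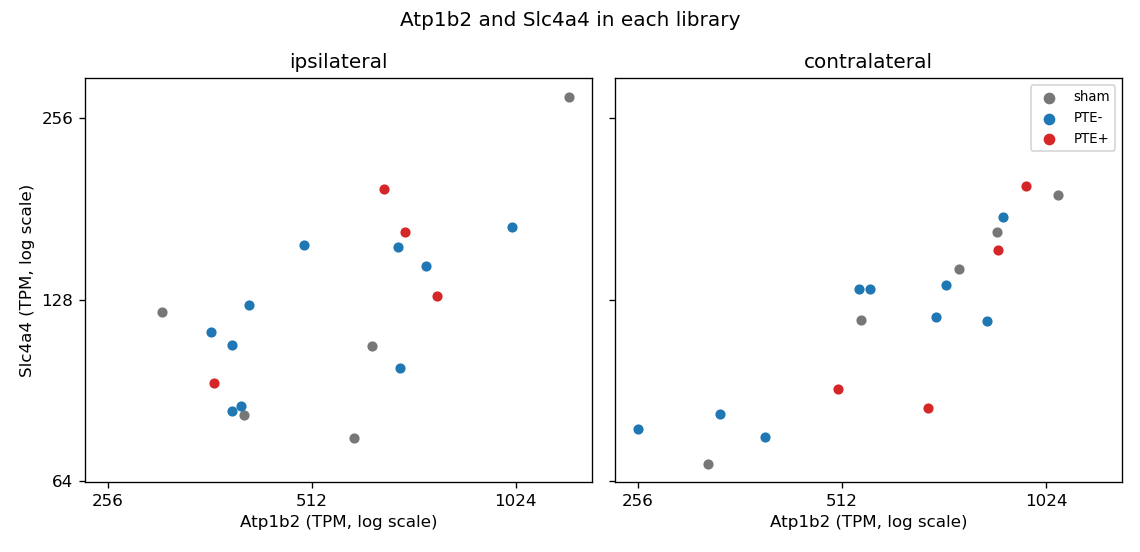
Slc4a4 against Atp1b2 in TPM (both axes logarithmic), 1 point per library colored by group, for each hemisphere. The points run upward together, with r = 0.67 in the ipsilateral and r = 0.87 in the contralateral cortex.

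Of the 50 other genes on lists of pump alpha subunits, further FXYD genes, bicarbonate transporters, carbonic anhydrases, proton exchangers and sodium-coupled transporters, 20 or 21 passed the filter. Abundant genes among them were Slc1a3, the glutamate transporter GLAST, at a mean of 2141 TPM, Nkain4 at 1044 TPM, the carbonic anhydrase gene Car2 at 933 TPM, the glutamine transporter gene Slc38a3 at 857 TPM, the glutamate transporter gene Slc1a2 at 502 TPM, the GABA transporter gene Slc6a11 at 358 TPM, Car4 at 130 TPM and Fxyd5 at 81.7 TPM. For ipsilateral PTE+ against PTE- 1 of 20 was higher and 0 lower, where 0.573% of all genes tested were DEGs (medians of 0.22 for the list and 0.12 for all genes). It was Slc38a3, by 0.34 (986 ± 182 TPM, n = 4, against 784 ± 162 TPM, n = 10, exact permutation p = 0.0639). Its call held in 3 of 12 alternatives and was lost without PTE+ mouse 9_17 (0.25) or 9_19 (0.28) or PTE- mouse 9_14 (0.30). For contralateral CCI against sham 1 of 21 was lower and 0 higher (medians of -0.11 and -0.07), near the 4.05% of all genes tested that were DEGs. It was the bicarbonate transporter gene Slc4a10, with a log2 difference of -0.97 at 1.86 ± 2.36 TPM (SD, n = 13) against 5.53 ± 6.81 TPM (SD, n = 5). Its call held in 6 of 15 alternatives and was lost without PTE+ mouse 8_10 (-0.95) or 8_17 (-0.94) or sham mouse 8_16 (-1.04), 9_9 (-1.05) or 9_11 (-0.96). For contralateral PTE+ against PTE-, and between the hemispheres of injured mice, 0 of 20 passed in limma, with 0 and 2 at an unadjusted p under 0.05 and medians of 0.10 (0.05 over all genes) and 0.03 (-0.01). Over all genes tested, 2.79% and 4.51% were DEGs there.

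The genes whose pattern over libraries was most like that of each member were ranked by the lower of the Pearson's r in the 2 hemispheres, over 10064 genes, 19 ipsilateral and 18 contralateral libraries. Atp1b2 and Slc4a4 had the closest partners. For Atp1b2 these were Sec14l2 (r of 0.93 and 0.96), Lrrc4b (0.93 and 0.95) and Hnrnpl (0.92 and 0.94). For Slc4a4 they were Dag1 (0.95 and 0.91) and Cluh (0.90 and 0.91). Fxyd7 ran with Purb (0.78 and 0.78), Chmp5 (0.76 and 0.79) and Ncbp2 (0.81 and 0.74), and Atp1b1 with Tank (0.75 and 0.82), Atp6ap2 (0.78 and 0.75) and Zfp160 (0.74 and 0.80). Fxyd1 and Atp1b3 had looser partners, Myg1 (0.61 and 0.68), Mnat1 (0.59 and 0.70) and Sf3b5 (0.58 and 0.74) for Fxyd1 and Gstm2 (0.68 and 0.69), Fgfbp1 (0.65 and 0.74) and Agpat4 (0.64 and 0.62) for Atp1b3. Fxyd6 was closest to Isoc1 (0.97 and 0.76), Slc35e3 (0.96 and 0.64) and Cidea (0.88 and 0.63), values to which the library of 9_14, with Fxyd6 at 0, contributes on the ipsilateral side.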

How the data were processed

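Astrocytes were isolated from each cortical hemisphere of sham and CCI-injured mice with ACSA-2 beads after papain dissociation, and poly(A) RNA was amplified with the SMART-Seq v4 kit, which does not keep strand, and sequenced paired-end. The authors trimmed reads with Trim Galore 0.6.4 and estimated expression against mm10 with RSEM 1.2.28 and Bowtie2 2.4.1, and deposited TPM per gene in 1 table per hemisphere. They tested with DESeq2 1.36.0 on counts, which were not used here. TPM keep no depth, so no count test was possible. The annotation release of their index is not given in the sources used here.

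Groups came from the sample labels. The 7 members and all gene lists were chosen with earlier results of these data known. Gene symbols were matched for 21856 of 21975 Ensembl identifiers, and positions came from GENCODE. For each comparison, genes whose group mean exceeded 5 TPM on either side were fitted as log2(TPM + 1) in limma 3.58.1 (R 4.3.3) with an intensity trend, and p-values were adjusted over all genes tested by the Benjamini-Hochberg method. All 7 members passed the filter in every comparison. A gene was called a DEG by the study's thresholds, an unadjusted p under 0.05 and at least 1.2-fold. A fold change on this scale is understated for low genes. Members were also tested 1 by 1 with exact two-sided permutation of mice between groups, or of the signs of within-mouse differences (scipy 1.17.1, numpy 2.4.6, pandas 2.3.3, Python 3.11.15). Figures were drawn with matplotlib 3.10.9.

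Hemispheres were compared within mice, because same-numbered libraries come from 1 mouse. Over 10235 genes the 2 libraries of a mouse deviated together, with a median r of 0.412 (0.0418 to 0.686, above 0.1 in 16 of 17 mice), against -0.106 for 98 pairs of different mice of the same groups. Deviations from a mean cancel over its mice, so r between different mice leans negative by construction. With this replicate block left out, the count of members that were DEGs between hemispheres of injured mice was 1 in place of 3. Groups within a hemisphere share no mice, so no pairing enters there. Named genes were the 7 members, every gene of the pathway lists that was a DEG in at least 1 of the study's 4 comparisons (CCI against sham and PTE+ against PTE- in each hemisphere) or among the 10 highest of those lists by mean TPM, and for each member the 3 genes with the highest value of the smaller r of both hemispheres. Some genes named by this rule are not reported here. Fits were tested on simulated data with known changes. Alternatives changed the pseudocount (0.1), the filter, the scaling, the weights, the covariates and the libraries. Leaving out each PTE- mouse in the comparisons between hemispheres, and the comparison by the first number of the mouse names, were chosen after seeing the data.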

Additional observations from a re-analysis of the deposited data

Results flagged for a closer look

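Of 42 groups of 4 to 10 libraries checked, 6 for each member, 4 held a library whose gap to its nearest neighbour exceeded Dixon's critical value, and chance gives about 1 in 20. In ipsilateral PTE+ mice Fxyd6 stood at 49.01 TPM in mouse 9_18 against 37.9 TPM in the next highest. The other 3 all came from sham mouse 9_11. Its ipsilateral Atp1b1 was 180.73 TPM against 101.59 TPM in the next sham mouse, its contralateral Atp1b1 was 218.65 TPM against 108.34 TPM, and its ipsilateral Slc4a4 was 278.14 TPM against 121.84 TPM.

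The hemisphere difference of Fxyd1 in CCI mice exceeded that in sham mice by 0.39 on the log2 scale, a difference between groups in the same contrast that was tested directly (exact permutation p = 0.0139, and an adjusted p of 0.63 in limma).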

How the results depend on the processing

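Over 1141 refits of 77 log2 differences (7 members in 11 comparisons), 1012 kept their sign and their side of the thresholds, 31 lost a call, 13 gained one and 85 changed sign, none of these a DEG in either fit. Fxyd1 remained a DEG in all alternatives for ipsilateral CCI against sham (17), ipsilateral PTE- against sham (13) and the hemispheres of injured mice (15). Counts of members that were DEGs moved as follows, and the cause was not tested. With array weights there were 2 for ipsilateral CCI against sham (Slc4a4 added, at 0.41), 3 for ipsilateral PTE+ against sham (Slc4a4 added, at 0.60) and 1 for contralateral PTE+ against sham. For ipsilateral PTE+ against sham there were 0 with median centring, 1 with quantile normalization and 1 in the fit of all 3 groups. For contralateral PTE+ against PTE- there was 1 without the filter and 0 in the fit of all 3 groups. For hemispheres of injured mice there was 1 without the replicate block, and for the hemisphere difference of CCI against sham 0 with median centring. Within a hemisphere, the mice left out 1 at a time were PTE+ and sham mice and, ipsilaterally, PTE- mouse 9_14. No other PTE- mouse was left out there, so dependence on single PTE- mice was not covered. Leaving out 1 mouse at a time gave 1 to 2 for ipsilateral CCI against sham, 0 to 3 for ipsilateral PTE+ against sham, 0 to 1 for contralateral CCI, PTE- and PTE+ against sham, 0 to 2 for contralateral PTE+ against PTE- and 1 to 3 for the hemisphere difference.

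Signs changed as follows. For ipsilateral CCI against sham, array weights gave 0.12 for Atp1b2 and 0.17 for Fxyd6. For ipsilateral PTE+ against PTE-, quantile normalization gave 0.0038 for Fxyd1 and -0.15 for Fxyd6, and array weights 0.063 and -0.25. For contralateral CCI against sham, median centring gave 0.045 for Atp1b3, 0.099 for Fxyd1 and 0.046 for Fxyd7, quantile normalization 0.060 for Fxyd7 and array weights 0.049 for Fxyd1. For contralateral PTE+ against PTE-, median centring gave -0.016 for Atp1b3 and array weights -0.19 for Slc4a4. Leave-one-out ranges that crossed 0 were, for ipsilateral CCI against sham, -0.0017 to 0.32 (Atp1b1), -0.20 to 0.020 (Atp1b3), -0.26 to 0.24 (Atp1b2), -0.061 to 0.41 (Slc4a4) and -0.29 to 0.20 (Fxyd6). For ipsilateral PTE+ against PTE- they were -0.089 to 0.053 (Atp1b1), -0.11 to 0.084 (Fxyd1) and -0.39 to 0.23 (Fxyd6). For contralateral CCI against sham they were -0.045 to 0.31 (Atp1b1), -0.12 to 0.11 (Fxyd1), -0.12 to 0.054 (Fxyd7) and -0.41 to 0.022 (Atp1b2). For contralateral PTE+ against PTE- they were -0.014 to 0.095 (Atp1b3), -0.56 to 0.013 (Fxyd7) and -0.086 to 0.32 (Slc4a4), and for hemispheres of injured mice -0.22 to 0.021 (Atp1b2). TPM without depth and 4 PTE+ mice a hemisphere limit the precision of all values.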
